A study of Rattus norvegicus with 12 samples.

Results

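Potassium channel subunits were taken as every gene whose symbol begins with Kcn, and 92 of the 32883 genes in the tables met this rule. They comprised 38 voltage-gated, 15 inward rectifier, 14 two-pore, 8 calcium- or sodium-activated and 17 auxiliary subunits. RNA was sequenced in cultured cardiomyocytes (heart muscle cells) of newborn Sprague-Dawley rats, aged 1 to 3 days. The 6 groups were phenylephrine (PE, 10 µM) with JQ1 (1 µM), PE with DMSO, endothelin-1 (ET-1, 100 nM) with JQ1, ET-1 with DMSO, acetic acid vehicle with JQ1, and acetic acid vehicle with DMSO. All were treated for 24 h and held 2 libraries each. All cultures had been kept in 10 µM cytosine arabinoside, which stops dividing cells, until 24 h before treatment. PE acts on alpha-1 adrenergic receptors and ET-1 on endothelin receptors, and JQ1 displaces the BET bromodomain proteins from acetylated chromatin. The study's title concerns the elongation factor P-TEFb in cardiomyocyte hypertrophy. Groups with DMSO are called PE, ET-1 and vehicle below. Whether the 2 libraries of a group came from separate cultures or animals is not stated in the labels, and p-values therefore cover only the spread between these libraries, which may be technical.

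Potassium channels let potassium leave the cell and so end each action potential and hold the resting potential. Voltage-gated channels open on depolarization and carry the transient outward and delayed rectifier currents of repolarization. Inward rectifiers hold the resting potential, and some of them answer to ATP or to G proteins. Two-pore channels carry background current, and auxiliary subunits change the gating, assembly or surface level of the pore subunits.

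Levels are gene sums of transcript FPKM after median-of-ratios scaling (rescaled FPKM), and values of a group are given for replicate 1 and then replicate 2. A gene was tested when 2 or more libraries reached 1 rescaled FPKM. Of the 92 subunits, 19 met this: 6 voltage-gated, 5 inward rectifier, 2 two-pore, 1 calcium-activated and 5 auxiliary. Of the other 73, 60 had some signal and 13 were listed at 0 in all 12 libraries. Only 11 of the 19 reached 1 in all 12 libraries. Kcnip2, Kcnmb1 and Kcnk2 were among those that reached it only in libraries without JQ1, so their lower level with JQ1 was in part built into the choice. Kcnd2, which encodes the pore of the fast transient outward current in rodent ventricle, was not analysed here.

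Each library held 2.34 to 2.96 Gb of aligned bases. The 6 cardiomyocyte markers summed to 10081 to 21944 rescaled FPKM. Endothelial, macrophage and neuronal or glial markers summed to at most 3.93, 5.62 and 3.89, and Cd163, Th and Chrna3 were listed at 0 in every library. Fibroblast markers summed to 68.9 to 705 and smooth muscle and pericyte markers to 26.9 to 212, and all of the 6 genes in both lists reached 1. In all 6 groups replicate 1 had the higher fibroblast, endothelial and macrophage sums, and replicate 2 the higher cardiomyocyte sum.

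RefSeq promoters on the build GRCr8, each running from 250 bases before to 50 bases after the annotated start, were found for 10 of the 19 tested subunits. Those of 3 genes that fell with JQ1 in every treatment (Kcnip2, Kcnj5 and Kcnmb1) and of 2 abundant genes that did not pass the test with JQ1 (Kcnj2 and Kcng2) are shown so that they can be read side by side. Capitals mark the TATA box letters TATAAA, the CCAAT box, the GC box GGGCGG and the E-box CACGTG, each on either strand.
Kcnip2 promoter: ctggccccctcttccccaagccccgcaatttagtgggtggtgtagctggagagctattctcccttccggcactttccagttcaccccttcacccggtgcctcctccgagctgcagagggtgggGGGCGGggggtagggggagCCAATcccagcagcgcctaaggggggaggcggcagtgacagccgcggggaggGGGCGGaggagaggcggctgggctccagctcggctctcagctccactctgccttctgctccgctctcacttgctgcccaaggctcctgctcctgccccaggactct
Kcnj5 promoter: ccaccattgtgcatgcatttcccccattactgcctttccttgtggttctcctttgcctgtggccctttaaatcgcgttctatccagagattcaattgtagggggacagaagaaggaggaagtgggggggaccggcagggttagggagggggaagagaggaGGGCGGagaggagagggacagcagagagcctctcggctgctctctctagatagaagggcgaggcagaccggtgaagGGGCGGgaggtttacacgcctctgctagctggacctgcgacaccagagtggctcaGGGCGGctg
Kcnmb1 promoter: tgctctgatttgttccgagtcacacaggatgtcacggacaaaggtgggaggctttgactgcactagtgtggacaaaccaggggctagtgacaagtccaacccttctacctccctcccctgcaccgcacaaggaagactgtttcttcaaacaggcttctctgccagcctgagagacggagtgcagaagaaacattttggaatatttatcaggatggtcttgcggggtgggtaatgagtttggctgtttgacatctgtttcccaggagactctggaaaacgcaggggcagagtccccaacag
Kcnj2 promoter: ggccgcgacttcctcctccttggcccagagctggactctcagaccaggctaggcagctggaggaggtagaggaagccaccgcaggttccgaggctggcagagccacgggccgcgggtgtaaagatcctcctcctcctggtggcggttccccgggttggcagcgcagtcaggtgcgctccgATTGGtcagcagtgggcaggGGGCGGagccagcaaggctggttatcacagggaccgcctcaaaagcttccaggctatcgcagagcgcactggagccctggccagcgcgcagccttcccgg
Kcng2 promoter: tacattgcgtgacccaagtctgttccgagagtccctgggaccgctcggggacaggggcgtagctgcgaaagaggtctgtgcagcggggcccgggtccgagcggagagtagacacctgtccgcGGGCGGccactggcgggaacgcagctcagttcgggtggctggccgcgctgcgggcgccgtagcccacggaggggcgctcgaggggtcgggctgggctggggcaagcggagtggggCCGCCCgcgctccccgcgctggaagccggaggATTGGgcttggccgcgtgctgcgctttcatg
They lie at chr1:254613849-254614148 on the minus strand, chr8:39011047-39011346 minus, chr10:19061849-19062148 plus, chr10:96559975-96560274 plus and chr18:76083639-76083938 minus. GGGCGG occurs in 33.1% of all 33469 promoters of this length, CCAAT in 37.5%, TATAAA in 14.2% and CACGTG in 6.42%. GGGCGG stood 3 times in the Kcnj5 window, 2 times each in those of Kcnip2 and Kcng2, once in that of Kcnj2 and not in that of Kcnmb1. CCAAT stood once each in the Kcnip2, Kcnj2 and Kcng2 windows. None of the 5 windows held TATAAA or CACGTG, and the Kcnmb1 window held none of the 4 motifs. The share of G and C was 67.7% for Kcnip2, 59% for Kcnj5, 51.7% for Kcnmb1, 67% for Kcnj2 and 72% for Kcng2, against a median of 51.7% over all promoters. Among the 5 shown, windows above that median occurred both in genes that fell and in genes that were not called. Of the windows not shown, those of Kcna4 (41.7%) and Kcnk2 (44.3% and 41.7%) lay below it and held none of the 4 motifs. Both of these genes fell with JQ1 in every treatment. Among genes not called without the replicate block, Kcnd3 (77.7%) and Kcnmb4 (80.7%) lay above the median and Kcne4 (51.3%) just below it. These matches describe letters and are not binding sites, and the RefSeq starts were not compared with the coordinates in the deposited tables. Kcnip2 was listed on the plus strand in the deposited tables, unlike its RefSeq window, and this difference was not resolved.

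Kcng2, a voltage-gated subunit that forms no channel alone and modifies other voltage-gated subunits, had the highest mean level of the 19 in all 6 groups. In vehicle it averaged 114 ± 22.5 rescaled FPKM (SD, n = 2). Next in vehicle came Kcnj11 (33.8 ± 3.11), Kcnh2 (32.6 ± 4.84), Kcnq1 (30.7 ± 7.91) and Kcnj2 (30.4 ± 2.22), and in this order each mean lay within 1 SD of the next. With JQ1 in vehicle the order below Kcng2 began with Kcnj2 (35.6 ± 0.06), Kcnq1 (29.6 ± 7.92) and Kcnj12 (18.9 ± 3.65). Kcnh2 (10.0 ± 1.59) and Kcnj11 (8.52 ± 1.2) then took ranks 7 and 8, against ranks 3 and 2 in vehicle without JQ1. Summed over all 92 subunits, levels were 171 and 141 with PE and JQ1, 218 and 238 with PE, 178 and 127 with ET-1 and JQ1, 233 and 251 with ET-1, 235 and 311 with vehicle and JQ1, and 312 and 396 in vehicle. In each treatment both libraries with JQ1 lay below both without it.

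**Figure D1:**
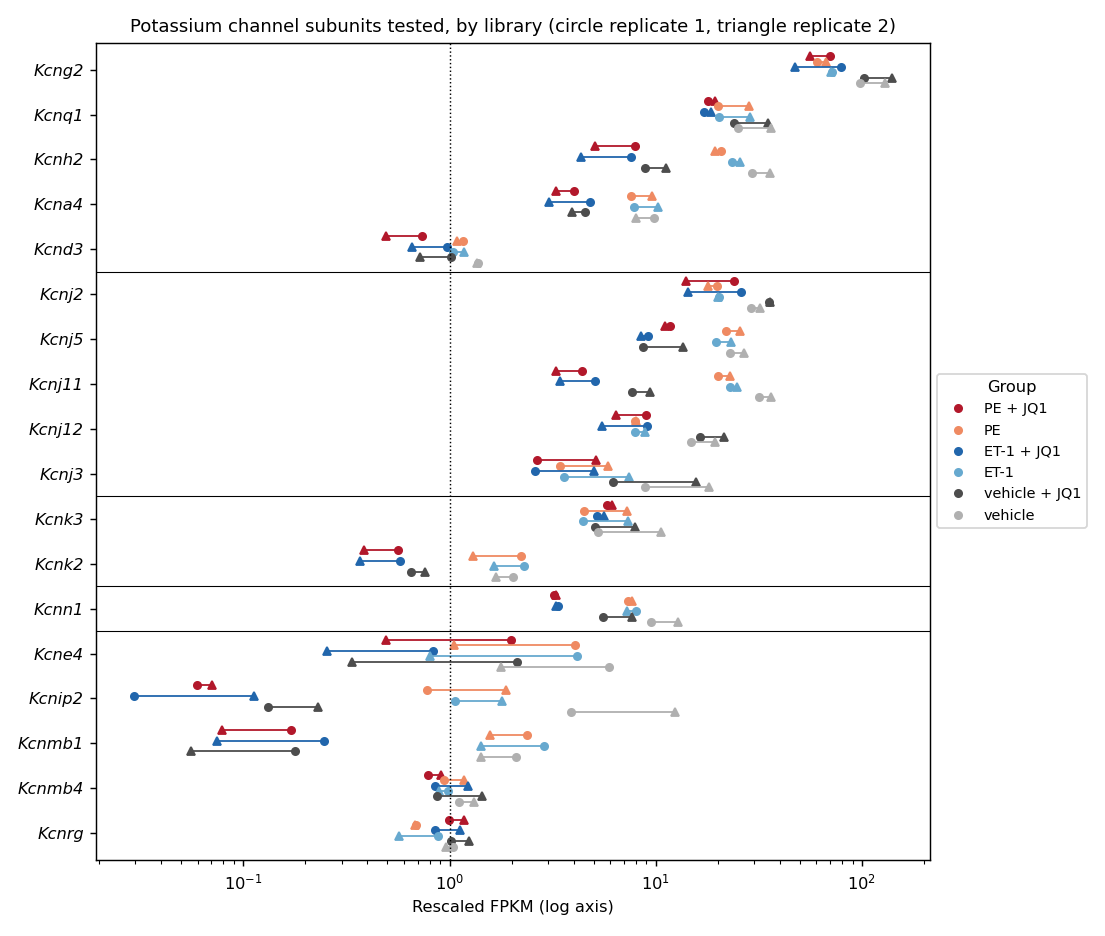
Rescaled FPKM (log axis) of 18 of the 19 tested subunits in each of the 12 libraries, with lines between the 2 libraries of a group and horizontal rules between voltage-gated, inward rectifier, two-pore, calcium-activated and auxiliary subunits. Kcng2 lies to the right of all others in every group, and the libraries with JQ1 of Kcnip2 and Kcnmb1 lie below 1, the dotted line.

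The comparisons of JQ1 with DMSO ask which subunits change within each treatment when BET proteins are displaced. In PE 8 subunits fell, and in ET-1 and in vehicle 9 fell, at an adjusted p under 0.05 by limma, and none rose. The same 8 genes fell in all 3 treatments: Kcnj11, Kcnh2, Kcnj5, Kcna4, Kcnn1, Kcnk2, Kcnip2 and Kcnmb1. Over all 13793 genes tested, 19.0% were called lower in PE, 19.6% in ET-1 and 16.7% in vehicle, and 17.5%, 17.9% and 15.3% were called higher. Among the 11 subunits that reached 1 in every library, 5 fell in each treatment. Neither a share nor a median was computed over all genes that reached 1 in every library. Those given here cover the wider set of genes tested. The median log2 difference of the 19 was -0.76 in PE, -0.95 in ET-1 and -0.71 in vehicle, against 0.01, 0.03 and 0.01 over all genes tested. That median is in part set by the filter, which 4 of the 19 passed only through libraries without JQ1, and over the 11 subunits at or above 1 in all 12 libraries it was -0.36, -0.46 and -0.35. With the replicate number as a block, 12 were called lower in each treatment, against 29.7% of all genes in PE, 29.8% in ET-1 and 27.9% in vehicle. In these bulk samples fewer cells of a type and less RNA per cell cannot be told apart.

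Among inward rectifiers, Kcnj11 (ENSRNOG00000021128, rn6 chr1:102103094-102106127), the pore of the ATP-sensitive channel, had the largest fall of any subunit in PE and in ET-1 on the log2(rescaled FPKM + 0.5) scale, which understates the change of low genes. As a share of the group mean without JQ1, Kcnip2 and Kcnmb1 were lower (4.92% and 6.37% in PE, 5% and 7.53% in ET-1). Kcnj11 stood at 4.37 and 3.29 rescaled FPKM with PE and JQ1, against 20.05 and 22.82 with PE. With ET-1 and JQ1 it stood at 5.08 and 3.45, against 22.79 and 24.83 with ET-1. With vehicle and JQ1 it stood at 7.64 and 9.40, against 31.61 and 36.01 in vehicle. No library with JQ1 reached any library without it, and the group means with JQ1 were 17.9%, 17.9% and 25.2% of those without it in PE, ET-1 and vehicle. The log2 differences were -2.35 ± 0.19 in PE (adjusted p = 0.00016), -2.37 ± 0.19 in ET-1 (adjusted p = 0.000145) and -1.93 ± 0.19 in vehicle (adjusted p = 0.00044; ± SE, limma).

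Kcnj5 (rn6 chr8:33433905-33463467), a subunit of the acetylcholine-activated channel of atrial cells, had 11.66 and 11.08 rescaled FPKM with PE and JQ1, against 21.81 and 25.74 with PE. It had 9.12 and 8.47 with ET-1 and JQ1, against 19.64 and 23.07 with ET-1. It had 8.64 and 13.53 with vehicle and JQ1, against 22.91 and 26.65 in vehicle. All 6 libraries with JQ1 lay below all 6 without it. The log2 differences were -1.03 ± 0.19 in PE (adjusted p = 0.00447), -1.23 ± 0.19 in ET-1 (adjusted p = 0.00192) and -1.15 ± 0.19 in vehicle (adjusted p = 0.00342; limma). Kcnj3 (rn6 chr3:41019898-41181070), its partner in that channel, was at 2.65 and 5.16 with PE and JQ1 against 3.42 and 5.88 with PE, and its other groups overlapped likewise. Its log2 differences were -0.25 ± 0.58 in PE, -0.46 ± 0.58 in ET-1 and -0.35 ± 0.58 in vehicle, none of which passed. With the replicate block the ET-1 and vehicle values passed (adjusted p = 0.0143 and 0.046).

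Kcnj2 (rn6 chr10:99437436-99439114) and Kcnj12 (rn6 chr10:47281786-47341411), which carry the inward rectifier current that sets the resting potential of ventricular cells, did not pass with JQ1 in any treatment, with or without the block. Kcnj2 had 24.02 and 14.02 rescaled FPKM with PE and JQ1, against 19.84 and 17.96 with PE. With ET-1 and JQ1 it had 25.84 and 14.33, against 20.17 and 20.01 with ET-1. With vehicle and JQ1 it had 35.55 and 35.64, against 28.81 and 31.95 in vehicle. The groups overlapped in PE and ET-1, and in vehicle both libraries with JQ1 were the higher ones. The intervals of the log2 difference ran from -0.70 to 0.63 in PE, -0.72 to 0.61 in ET-1 and -0.44 to 0.89 in vehicle (95%, limma). For Kcnj12 they ran from -0.65 to 0.52, -0.81 to 0.37 and -0.45 to 0.72. These intervals leave out changes of the size seen for Kcnj11.

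**Figure D2:**
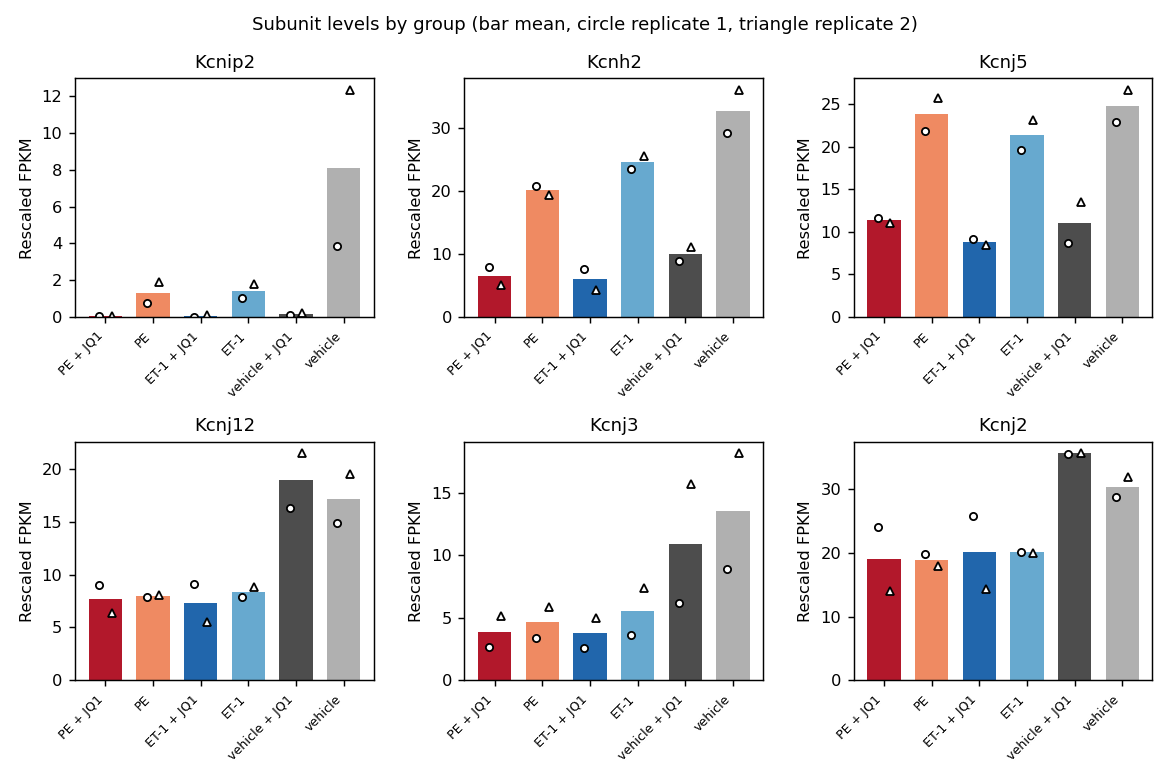
Rescaled FPKM of Kcnip2, Kcnh2, Kcnj5, Kcnj12, Kcnj3 and Kcnj2 by group, with bars at the mean of 2 libraries and a point for each library. Kcnip2, Kcnh2 and Kcnj5 are lower in every library with JQ1 than in any library without it of the same treatment, while Kcnj12 and Kcnj3 are lower with PE and ET-1 than in vehicle whether or not JQ1 is present.

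The ATP-sensitive channel is built from a Kcnj11 or Kcnj8 pore and a sulfonylurea receptor, Abcc8 or Abcc9. Kcnj8 (highest value 1.01) was below the level for testing. Abcc9, the receptor of the ventricular channel, had 3.68 and 3.23 rescaled FPKM with PE and JQ1 against 8.88 and 9.57 with PE, 3.13 and 2.76 with ET-1 and JQ1 against 7.66 and 9.05 with ET-1, and 4.95 and 4.50 with vehicle and JQ1 against 15.36 and 15.78 in vehicle. Its log2 differences with JQ1 were -1.3 ± 0.11 in PE (adjusted p = 0.000175), -1.36 ± 0.11 in ET-1 (adjusted p = 0.000144) and -1.62 ± 0.11 in vehicle (adjusted p = 0.000101). It also fell with PE (-0.73 ± 0.11, adjusted p = 0.0142) and with ET-1 (-0.86 ± 0.11, adjusted p = 0.0167) against vehicle, without JQ1. Abcc8, the other receptor, had 5.99 and 4.81 with PE and JQ1 against 7.86 and 9.14 with PE. It fell with JQ1 in PE (-0.61 ± 0.19, adjusted p = 0.0334) and ET-1 (-0.55 ± 0.19, adjusted p = 0.0481), and its value in vehicle was -0.05 ± 0.19 (adjusted p = 0.876).

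**Figure D3:**
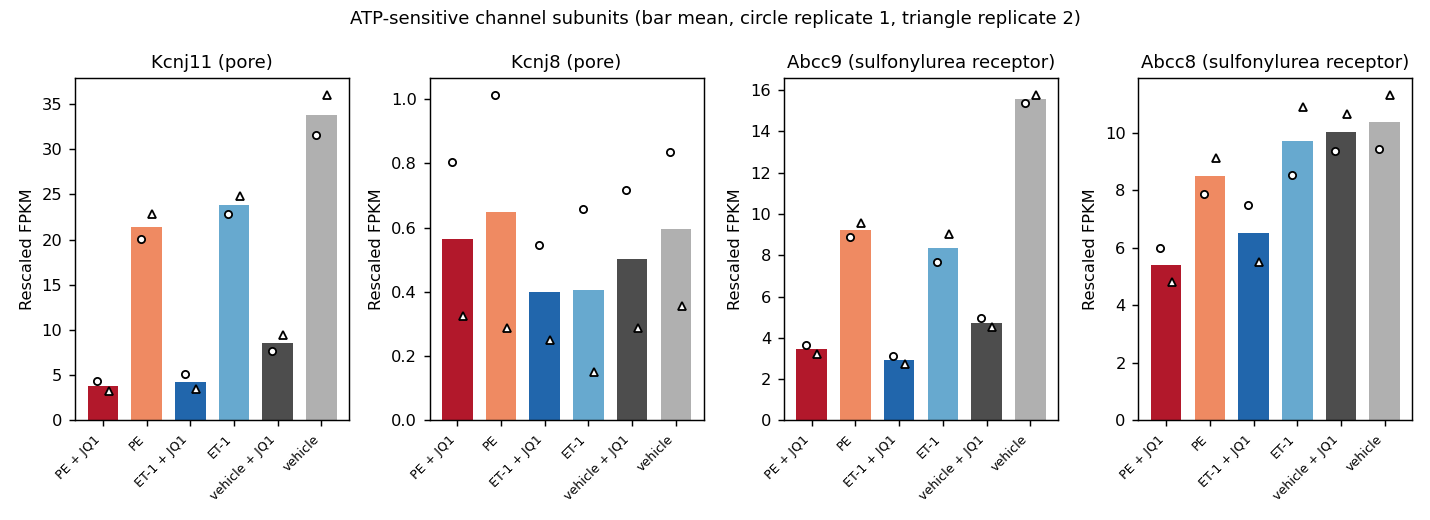
Rescaled FPKM of the ATP-sensitive channel's pore subunits Kcnj11 and Kcnj8 and receptors Abcc9 and Abcc8, with bars at the mean of 2 libraries and a point for each library; each panel has its own scale from 0. Kcnj11 and Abcc9 are lower with JQ1 in every treatment, Kcnj8 stays at or under 1.01, and Abcc8 differs less between groups.

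Abcc8 and Abcc9 belong to a list of 13 genes known to act with potassium channels or on their expression, of which 9 were tested. Besides Abcc9, JQ1 lowered Cav3 (caveolin-3, a membrane scaffold), Irx3 and Irx5 (transcription factors of the ventricular wall) and Rnf207 (a ubiquitin ligase that acts on the KCNH2 channel in human cells). That made 5 of 9 lower in vehicle and, with Abcc8, 6 of 9 in PE and in ET-1, and none rose, beside 16.7%, 19.0% and 19.6% of all genes called lower in vehicle, PE and ET-1. Rnf207 stood at 13.02 and 12.53 rescaled FPKM with PE and JQ1, against 56.0 and 63.6 with PE. Akap9 (an anchoring protein), Dlg1 (a scaffold) and Nedd4l (a ubiquitin ligase) did not pass in any of the 3 treatments, though Dlg1 was called higher in ET-1 with the replicate block (adjusted p = 0.0433). Dpp6, Dpp10, Lrrc26 and Lrrc52, further auxiliary proteins of potassium channels, were at or near 0.

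Among voltage-gated subunits, Kcnh2 (ENSRNOG00000009872, rn6 chr4:7355574-7387253), the pore of the rapid delayed rectifier, had 7.90 and 5.08 rescaled FPKM with PE and JQ1, against 20.81 and 19.39 with PE. With ET-1 and JQ1 it had 7.62 and 4.32, against 23.43 and 25.55 with ET-1. With vehicle and JQ1 it had 8.92 and 11.16, against 29.13 and 35.98 in vehicle. Every library with JQ1 lay below every library without it. The log2 differences were -1.59 ± 0.27 in PE (adjusted p = 0.00292), -1.997 ± 0.270 in ET-1 (adjusted p = 0.000986) and -1.65 ± 0.27 in vehicle (adjusted p = 0.00313; limma). The value was split between a transcript of 15 exons and one of 11, and the longer one took 39.2 to 54.8% with JQ1 and 37.1 to 55.3% without it. Both transcripts were therefore lower with JQ1: the longer stood at 1.83 to 4.42 with it and 8.89 to 16.2 without it.

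Kcna4 (rn6 chr3:98297554-98300680), which carries the slow transient outward current, had 4.03 and 3.28 rescaled FPKM with PE and JQ1, against 7.57 and 9.58 with PE. It had 4.82 and 3.05 with ET-1 and JQ1, against 7.85 and 10.27 with ET-1. It had 4.56 and 3.92 with vehicle and JQ1, against 9.86 and 8.02 in vehicle. No library with JQ1 reached one without it. Log2 differences were -1.12 ± 0.23 in PE (adjusted p = 0.00616), -1.13 ± 0.23 in ET-1 (adjusted p = 0.00595) and -0.99 ± 0.23 in vehicle (adjusted p = 0.0128; limma). The vehicle call was lost without vehicle replicate 1 or without the second vehicle library with JQ1 (highest adjusted p = 0.0763).

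Kcng2, the most abundant subunit, had 70.18 and 56.11 rescaled FPKM with PE and JQ1 against 60.71 and 67.05 with PE, 79.51 and 47.26 with ET-1 and JQ1 against 71.41 and 70.39 with ET-1, and 102.19 and 140.37 with vehicle and JQ1 against 97.73 and 129.55 in vehicle. The groups overlapped in all 3 treatments, and the 95% intervals of the log2 difference lay between -0.81 and 0.69.

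Kcnq1 (rn6 chr1:216293087-216630339), the pore of the slow delayed rectifier, had 17.91 and 19.30 rescaled FPKM with PE and JQ1 against 20.11 and 28.48 with PE, and 17.09 and 18.50 with ET-1 and JQ1 against 20.21 and 28.51 with ET-1. Both differences (-0.36 ± 0.26 and -0.42 ± 0.26) passed only with the replicate block (adjusted p = 0.328 without and 0.044 with it in PE, 0.243 and 0.0226 in ET-1). In vehicle it had 24.01 and 35.20 with JQ1 against 25.12 and 36.31 without, a difference of -0.05 ± 0.26. One transcript of 16 exons took 78.4 to 86.4% of its signal in the 12 libraries. Kcnd3 (rn6 chr2:207923775-208140727), a pore of the fast transient outward current, stood at 0.49 to 1.02 with JQ1 and 1.03 to 1.37 without it. Its differences of -0.55 ± 0.19 in PE and -0.46 ± 0.19 in vehicle passed only with the block (adjusted p = 0.0127 and 0.0305), and the ET-1 value of -0.30 ± 0.19 passed in neither fit.

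Of the two-pore subunits, Kcnk2 (rn6 chr13:107690087-107886476), a channel opened by stretch and lipids, had 0.56 and 0.38 rescaled FPKM with PE and JQ1 against 2.23 and 1.3 with PE, 0.57 and 0.37 with ET-1 and JQ1 against 2.30 and 1.65 with ET-1, and 0.65 and 0.76 with vehicle and JQ1 against 2.02 and 1.68 in vehicle. It fell in each, by log2 differences of -1.19 ± 0.24 in PE (adjusted p = 0.00644), -1.35 ± 0.24 in ET-1 (adjusted p = 0.0036) and -0.96 ± 0.24 in vehicle (adjusted p = 0.0191). Leaving out any of the 4 vehicle libraries, with or without JQ1, ended the vehicle call (highest adjusted p = 0.0987). Kcnk3 (rn6 chr6:27151612-27190132), an acid-sensitive background channel, was the more abundant of the 2: 5.82 and 6.16 with PE and JQ1 against 4.50 and 7.29 with PE, and 5.07 and 7.97 with vehicle and JQ1 against 5.26 and 10.61 in vehicle. Its groups overlapped, with log2 differences of 0.06 ± 0.37 in PE, -0.08 ± 0.37 in ET-1 and -0.22 ± 0.37 in vehicle. The 95% intervals ran from -1.07 to 0.90, so a change of the size seen for Kcnk2 in vehicle was not left out there.

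Kcnn1 (rn6 chr16:20336638-20348804), a small-conductance channel opened by calcium, had 3.22 and 3.30 rescaled FPKM with PE and JQ1, against 7.32 and 7.67 with PE. It had 3.36 and 3.29 with ET-1 and JQ1, against 8.0 and 7.27 with ET-1. It had 5.58 and 7.69 with vehicle and JQ1, against 9.51 and 12.88 in vehicle. Within each treatment the groups did not overlap. The log2 differences were -1.09 ± 0.17 in PE (adjusted p = 0.0019), -1.09 ± 0.17 in ET-1 (adjusted p = 0.00177) and -0.71 ± 0.17 in vehicle (adjusted p = 0.014). The vehicle call was lost without vehicle replicate 2 or without the first vehicle library with JQ1 (highest adjusted p = 0.0827).

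Of the auxiliary subunits, Kcnip2 (ENSRNOG00000018018, rn6 chr1:262892545-262916361), which encodes KChIP2, the calcium-binding partner of the fast transient outward channel, differed most between groups. It had 0.06 and 0.07 rescaled FPKM with PE and JQ1, 0.03 and 0.11 with ET-1 and JQ1, and 0.13 and 0.23 with vehicle and JQ1. Without JQ1 it had 0.78 and 1.88 with PE, 1.06 and 1.79 with ET-1, and 3.88 and 12.34 in vehicle. The 2 vehicle libraries lay far apart, and even the lower one exceeded all libraries of other groups. The group means with JQ1 were 4.92% of those without it in PE, 5% in ET-1 and 2.23% in vehicle. The levels with JQ1 rested on 0.20 to 1.46 kb of aligned bases per library, against 4.77 to 87.4 kb without it.

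On the log2 scale with the added 0.5, Kcnip2 differed with JQ1 by -1.62 ± 0.49 in PE (adjusted p = 0.0327), -1.73 ± 0.49 in ET-1 (adjusted p = 0.0251) and -3.47 ± 0.49 in vehicle (adjusted p = 0.0017; limma). The vehicle call held on leaving out each library in turn. The ET-1 call was lost without any of the 4 libraries compared (highest adjusted p = 0.127), and the PE call without either PE library with JQ1 or without PE replicate 2 (highest adjusted p = 0.175). In the libraries without JQ1, 76.4 to 98.2% of the signal lay in a transcript of 8 exons, and in those with JQ1 all of it was listed in one of 10 exons, at 0.03 to 0.23 against 0.008 to 0.378 without JQ1. The 8-exon transcript stood at 0.692 to 9.83 without JQ1 and was listed at 0 with it, while the levels of the 10-exon one overlapped. The shares with JQ1 rest on only 0.20 to 1.46 kb of aligned bases per library, too few to show a change of transcript.

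Kcnmb1 (rn6 chr10:18906010-18919639), the beta subunit of the large-conductance calcium-activated channel in smooth muscle, had 0.17 and 0.08 rescaled FPKM with PE and JQ1 against 2.37 and 1.56 with PE, 0.25 and 0.07 with ET-1 and JQ1 against 2.86 and 1.43 with ET-1, and 0.18 and 0.06 with vehicle and JQ1 against 2.09 and 1.42 in vehicle. The groups did not overlap. On the log2 scale it differed by -1.96 ± 0.32 in PE (adjusted p = 0.00232), -1.96 ± 0.32 in ET-1 (adjusted p = 0.00223) and -1.86 ± 0.32 in vehicle (adjusted p = 0.00365). The pore of that channel, Kcnma1, reached at most 0.014. The 6 smooth muscle and pericyte markers summed to 65.9 and 60.1 with PE and JQ1 against 174 and 212 with PE, 54.7 and 75.0 with ET-1 and JQ1 against 156 and 191 with ET-1, and 37.2 and 26.9 with vehicle and JQ1 against 83.0 and 77.5 in vehicle. Cnn1 alone gave 112 and 164 of the sums with PE, against 29.6 and 47.3 in vehicle. Myh11 went the other way, with 12.5 and 7.86 with PE against 17.7 and 9.46 in vehicle. Kcnmb1 was the higher in replicate 1 of all 6 groups, and the marker sum in replicate 1 of 3. The part of these markers' cells in the Kcnmb1 result was not tested. Kcnip1 overlaps Kcnmb1 on the opposite strand and was listed at 0 in all libraries.

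Kcne4 (rn6 chr9:84689150-84690338), which inhibits the KCNQ1 channel, followed the replicate number. It had 1.98 and 0.49 rescaled FPKM with PE and JQ1 against 4.06 and 1.06 with PE, 0.83 and 0.25 with ET-1 and JQ1 against 4.13 and 0.81 with ET-1, and 2.12 and 0.34 with vehicle and JQ1 against 5.93 and 1.79 in vehicle. Replicate 1 was the higher in all 6 groups, and within each replicate number JQ1 was lower in every treatment. The differences of -0.76 ± 0.90, -1.296 ± 0.905 and -1.37 ± 0.90 in PE, ET-1 and vehicle passed only with the replicate block (adjusted p = 0.0168, 0.00136 and 0.00121). These SEs are from the fit without the block, and with the block the SE was 0.21 in each treatment. The 6 fibroblast markers summed to 385 and 74.7 with PE and JQ1 against 548 and 120 with PE, 311 and 68.9 with ET-1 and JQ1 against 488 and 120 with ET-1, and 371 and 84.3 with vehicle and JQ1 against 705 and 179 in vehicle. Their part in the Kcne4 result was not tested.

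**Figure D4:**
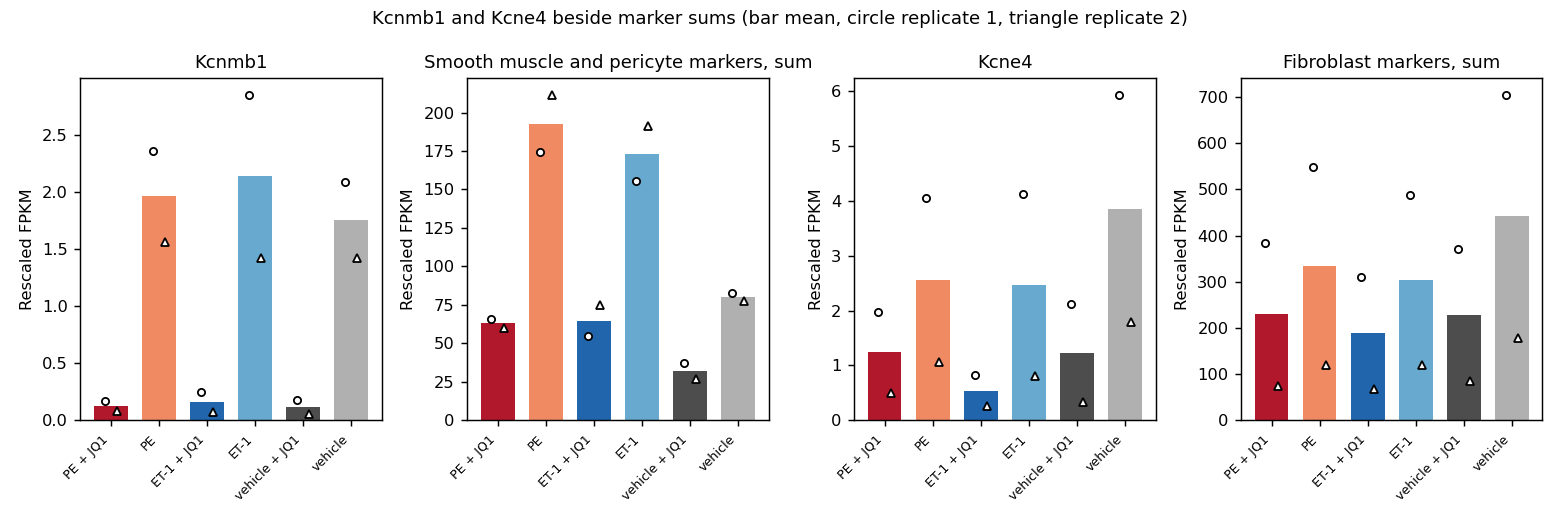
Rescaled FPKM of Kcnmb1, the summed smooth muscle and pericyte markers, Kcne4 and the summed fibroblast markers, with bars at the mean of 2 libraries and a point for each library; each panel has its own scale from 0. Kcnmb1 and the smooth muscle sum are lower with JQ1 in each treatment, and in all 6 groups replicate 1 is the higher for Kcne4 and the fibroblast sum.

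Kcnmb4, a further beta subunit, and Kcnrg, which hampers the assembly of voltage-gated channels in human cells, lay near 1 throughout (0.79 to 1.43 and 0.57 to 1.25) and did not pass. Kcnrg had the highest log2 difference of any tested subunit with JQ1, 0.42 ± 0.18 in PE (1.00 and 1.18 with PE and JQ1 against 0.69 and 0.68 with PE; adjusted p = 0.109, limma).

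The comparisons of PE and ET-1 with vehicle ask how the subunits respond to each agonist, and both share the vehicle libraries. One of the 19 subunits, Kcnip2, was lower with PE, and none was called with ET-1. Of all genes, 3.18% were called lower and 2.89% higher with PE, and 1.57% lower and 1.31% higher with ET-1. At an unadjusted p under 0.05 there were 8 of 19 with PE and 5 of 19 with ET-1, against 23.1% and 20.3% of all genes. With the replicate block 5 were called lower with PE and 4 with ET-1, against 12.2% and 9.50% of all genes. The median log2 difference of the 19 was -0.36 with PE and -0.36 with ET-1, against -0.01 and -0.02 over all genes.

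Kcnip2 was at 16.4% of the vehicle mean with PE and 17.6% with ET-1. The log2 differences were -2.11 ± 0.49 with PE (adjusted p = 0.0461) and -1.99 ± 0.49 with ET-1 (adjusted p = 0.0721; limma), and with the block both passed (adjusted p = 0.00522 and 0.00873). The PE call was close to the threshold and was lost on leaving out any of 11 of the 12 libraries, vehicle replicate 1 being the exception, with values between -2.88 and -1.33.

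Among inward rectifiers, 3 were lower with an agonist under the block. Kcnj12 had 7.90 and 8.05 rescaled FPKM with PE and 7.89 and 8.83 with ET-1, against 14.84 and 19.46 in vehicle. Its differences were -1.05 ± 0.25 with PE (adjusted p = 0.0524, and 0.0237 with the block) and -0.98 ± 0.25 with ET-1 (0.0824, and 0.0355 with the block). Kcnj3 had 3.42 and 5.88 with PE and 3.60 and 7.43 with ET-1, against 8.91 and 18.18 in vehicle. Its differences were -1.41 ± 0.58 with PE (adjusted p = 0.195, and 0.000761 with the block) and -1.22 ± 0.58 with ET-1 (0.289, and 0.00169 with the block). Replicate 2 was the higher in all 6 groups for Kcnj3. Kcnj11 passed with the block in PE (-0.65 ± 0.19, adjusted p = 0.0912 without and 0.0458 with it), and its ET-1 value was -0.50 ± 0.19. Kcnn1 passed with the block for PE (-0.53 ± 0.17, adjusted p = 0.0338) and ET-1 (-0.51 ± 0.17, adjusted p = 0.047).

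Kcng2 and Kcnj2 lay lower in both agonist groups than in vehicle with no overlap, but passed in neither fit. Kcng2 differed by -0.81 ± 0.26 with PE (adjusted p = 0.111) and -0.66 ± 0.26 with ET-1 (0.21), and Kcnj2 by -0.67 ± 0.29 (0.213) and -0.58 ± 0.29 (0.305). Of the genes that fell with JQ1, Kcna4, Kcnj5, Kcnk2 and Kcnmb1 had agonist differences between -0.21 and 0.19, and none passed. Their 95% intervals lay between -0.66 and 0.92. PE and ET-1 were also set against each other: 0 of the 19 subunits were called by limma with or without the block, against 0.00725% of all genes in both fits, and none had an unadjusted p under 0.05, against 1.49% of all genes.

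With JQ1 present, 0 subunits were called by limma for either agonist, against 0.718% of all genes for PE and 1.36% for ET-1, and at an unadjusted p under 0.05 there were 6 and 7 of 19 subunits, against 16.3% and 17.1% of all genes. The block called 6 lower for PE and 5 for ET-1, against 5.89% and 6.68% of all genes. They included Kcnj12 (-1.25 ± 0.25 for PE and -1.34 ± 0.25 for ET-1), Kcnj3 (-1.302 ± 0.582 and -1.33 ± 0.58), Kcnj11 (-1.06 ± 0.19 and -0.94 ± 0.19), Kcnn1 (-0.91 ± 0.17 and -0.88 ± 0.17) and Kcnq1 (-0.63 ± 0.26 and -0.69 ± 0.26). Their block-adjusted p lay between 0.00252 and 0.024. The SEs shown are from the fit without the block, and for Kcnj3 the SE with the block was 0.13. Kcnj2 was the sixth for PE (-0.94 ± 0.29, adjusted p = 0.0452 with the block). Kcnj12 stood at 9.02 and 6.39 with PE and JQ1 and 9.10 and 5.51 with ET-1 and JQ1, against 16.30 and 21.46 with vehicle and JQ1. Kcnip2, already at or below 0.23 in all libraries with JQ1, differed by -0.26 ± 0.49 for PE and -0.25 ± 0.49 for ET-1.

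**Figure D5:**
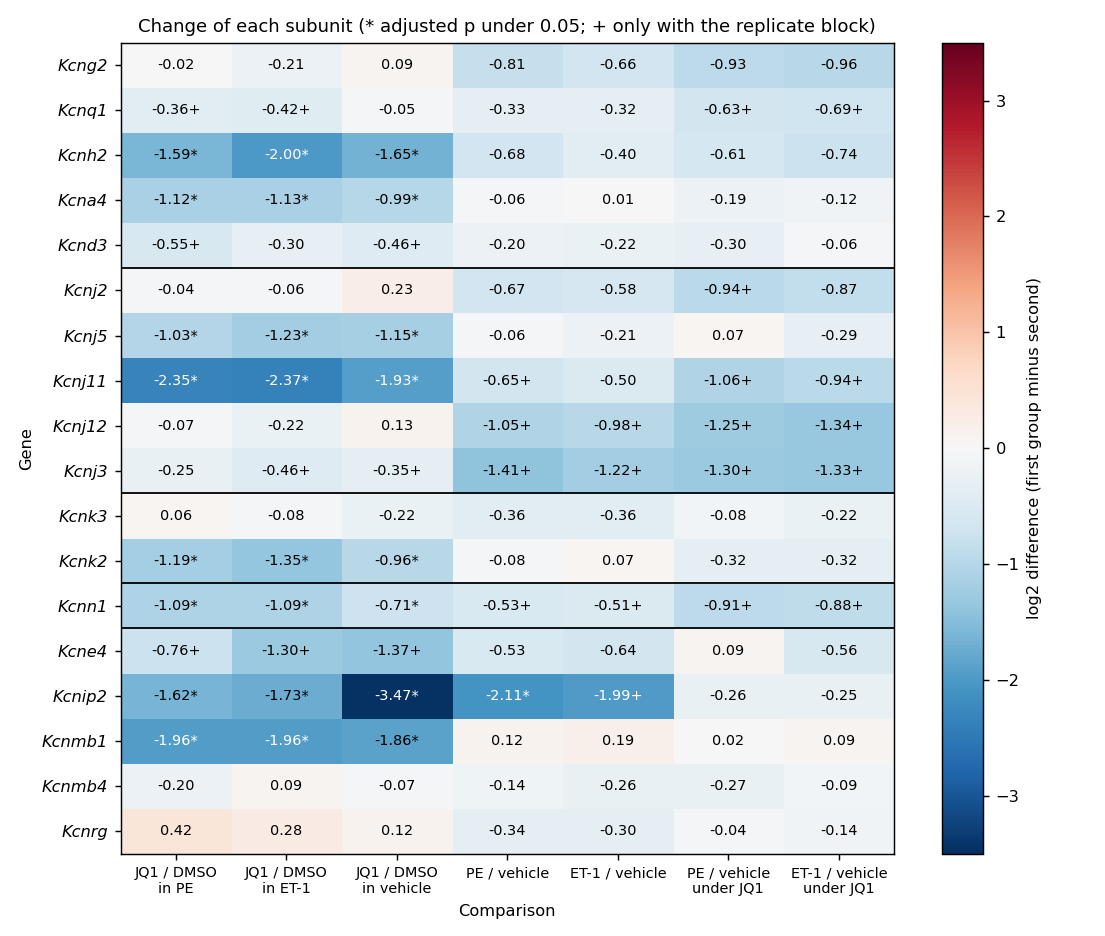
Log2 difference of 18 of the 19 tested subunits in 7 comparisons (colour and printed value), the group named first minus the second, with an asterisk for an adjusted p under 0.05 in the limma fit and a plus sign where only the fit with the replicate block passed. The columns for JQ1 hold 24 asterisks, all on negative values, and those for the agonists hold 1, for Kcnip2 with PE.

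Whether the effect of JQ1 differed with the agonist was tested as an interaction, and 0 of the 19 subunits passed by limma with or without the block, and of all genes 0 were called without it and 0.0725% for PE and 0.0363% for ET-1 with it. Kcnip2 was the one subunit of 19 with an unadjusted p under 0.05 in each, against 5.20% of all genes for PE and 4.47% for ET-1. Its JQ1 effect was smaller by 1.84 ± 0.69 on the log2 scale in PE than in vehicle (unadjusted p = 0.0287, adjusted p = 0.928) and by 1.74 ± 0.69 in ET-1 (unadjusted p = 0.0365, adjusted p = 1.00). Without vehicle replicate 2 the values were 1.06 in PE and 0.96 in ET-1, and over all 12 libraries left out in turn they reached 2.62 and 2.51. With JQ1 Kcnip2 lay at 0.23 or less in every library, below the added 0.5. That constant limits the measured fall more in PE and ET-1, where levels without JQ1 were lower than in vehicle. Part of these interaction values is therefore set by the scale. The other 18 subunits' interaction values lay between -0.44 and 0.61.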

How the data were processed

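Total RNA was depleted of ribosomal RNA and made into stranded libraries, per the labels' protocols. Per the submitters' processing notes, the tools were STAR 2.7.1a, StringTie 1.3.4d, Trim Galore 0.6.0 and DESeq2 1.24.0, in no stated order, on build rn6 (Rnor_6.0), whose coordinates are given here. The deposited tables held FPKM, normalized by the authors for length and library, and mean coverage (signal) for each of 41078 transcripts, per the file headers. No source used here states read length or strand setting, so overlapping and antisense genes are uncertain.

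FPKM was summed by gene and divided by a median-of-ratios factor for each library (0.873 to 1.127), computed on the 15551 genes that no library listed at 0. One FPKM corresponded to a mean coverage of 2.40 to 3.02. The 13793 genes that reached 1 rescaled FPKM in 2 or more libraries were tested with limma 3.58.1 in R 4.3.3, with trended, robust moderation, on log2(rescaled FPKM + 0.5). All 6 group means were fitted to all 12 libraries, and p was adjusted by Benjamini-Hochberg within each comparison at a threshold of 0.05. Differences on this scale understate changes of low genes. The test was checked on simulated data.

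Groups share replicate numbers whose meaning the labels do not give. Deviations of same-numbered libraries correlated at 0.16 to 0.67 over all 15 pairs of groups. An alternative fit therefore took the replicate number as a block, which pairs libraries by number. That pairing rests on the data and not the labels. The main fit, which gave every result not marked as from the block, left libraries unpaired. Unless marked as the block's, each SE printed beside a block p is from the main fit. Fits with the replicate block stand beside results they change. Alternatives were other pseudocounts, scalings and filters, the highest transcript alone, only the compared groups, and each library left out. Members and gene lists were chosen with earlier results of these data known. Genes were named if called in any comparison, if on a list of cardiac repolarization genes, or if highest in their class. A few genes that met this rule are not reported here.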

Additional observations from a re-analysis of the deposited data

How the results depend on the processing

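Over 72 single differences and 20 alternative settings, 1438 values were recomputed: 1326 kept direction and side of the threshold, 53 lost a call, 46 gained one (29 of them with the replicate block) and 13 changed sign. The 1326 include values that were uncalled in both fits. The 72 were differences with an unadjusted p under 0.05 in the main fit or an adjusted p under 0.05 with the block, and a few others named in the text. Gains with the block were therefore in part built into that choice. Leaving out a library outside the groups compared could not move a difference, only its p. The falls of Kcnj11, Kcnh2, Kcnj5, Kcnmb1 and Kcnn1 with JQ1 in PE and ET-1 held in every setting run. For PE against vehicle, where 1 subunit was called, the count was 0 with a pseudocount of 0.1 or only the compared groups, 2 with a pseudocount of 1 or upper quartile scaling, and 5 with the replicate block. It did not rise with any library left out, and the number called over all genes moved as well. Without the filter on low values it was 1 but another gene: the Kcnip2 call was lost and Kcnj10, at most 0.138 rescaled FPKM in any library, was called higher (0.30, adjusted p = 0.0173). For ET-1 against vehicle it was 4 with the block. With JQ1 present, ET-1 against vehicle gave 2 with a pseudocount of 0.1, 1 with upper quartile scaling, 5 with the block and 0 to 3 with a library left out (3 without the first library of ET-1 with JQ1), and PE gave 6 with the block and 0 to 2 with a library left out (2 without either library of ET-1 with JQ1). Beside the agonist counts above, 491 of 13793 genes were called lower for PE with a pseudocount of 1, and 578 of 13815 with upper quartile scaling. For ET-1 under JQ1, 165 of 13793 were called lower with a pseudocount of 0.1, and 126 of 13815 with upper quartile scaling. Without the filter on low values 79 subunits were tested. JQ1 then called 15 of them in ET-1 and 14 in PE, 1 of them higher in each. Of all 21852 genes, 2861 were called lower and 2355 higher in ET-1, and 2751 and 2288 in PE. With any library left out, JQ1 still called subunits lower in every treatment and none higher. Such a fit leaves 1 library in a group, and the number called over all genes moved as well. With a pseudocount of 1, the Kcnip2 calls with JQ1 were lost in PE (adjusted p = 0.0803) and ET-1 (0.064). With only the compared groups, calls were lost for Kcnk2 in PE (0.0527), Kcna4 in ET-1 (0.0521) and Kcnn1 in vehicle (0.0883). FPKM as deposited moved the median of all genes to -0.13 with PE and -0.11 with ET-1 against vehicle, and turned Kcng2 with JQ1 in vehicle to -0.0062. Leaving out a library turned the sign of values that were not called: with JQ1 in vehicle, Kcnj3 ran from -0.99 to 0.29, Kcnj12 from -0.0583 to 0.328, Kcng2 from -0.14 to 0.32, Kcnk3 from -0.69 to 0.25 and Kcnq1 from -0.33 to 0.22; Kcnj3 in ET-1 ran from -0.94 to 0.0118 and Kcne4 in PE from -1.54 to 0.0142. The cause was not tested.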

Other observations

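The 73 subunits below the level for testing included several genes of cardiac repolarization. None exceeded 1.20 rescaled FPKM in any library, and 40 stayed under 0.1. Kcnn2, a small-conductance calcium-activated channel, came closest. It had 0.09 and 0.22 with PE and JQ1 against 0.67 and 0.86 with PE, 0.18 and 0.09 with ET-1 and JQ1 against 0.58 and 0.73 with ET-1, and 0.23 and 0.66 with vehicle and JQ1 against 0.99 and 1.20 in vehicle. Without the filter on low values it fell with JQ1 in PE (-0.95 ± 0.23, adjusted p = 0.0227), ET-1 (-0.86 ± 0.23, adjusted p = 0.0324) and vehicle (-0.78 ± 0.23, adjusted p = 0.0496; limma). Kcne1, the partner of the KCNQ1 channel in the slow delayed rectifier, had 0 and 0.18 with PE and JQ1 against 0.56 and 0.29 with PE, and 0 in both libraries with ET-1 and JQ1 against 0.42 and 0.37 with ET-1. Kcnj14, an inward rectifier, had 0.27 and 0.26 with PE and JQ1 against 0.76 and 0.73 with PE, and Kcnq5, a voltage-gated subunit, 0.38 and 0.41 against 0.83 and 0.94. Without the filter Kcnj14 fell in all 3 treatments, Kcne1 in PE and ET-1, and Kcnq5 in PE.

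Kcnf1, a silent voltage-gated subunit, was listed at 0.13 and 0.49 with PE and 0.09 and 0.51 with ET-1, against 0 and 0.03 in vehicle. It was not called. Kcna5 reached at most 0.14, Kcnc1 0.06, Kcnk1 0.12 and Kcnab1 0.34. Kcna6, Kcnk5, Kcnk6 and Kcnj8 were higher in replicate 1 than in replicate 2 of all 6 groups, as were the summed fibroblast, endothelial and macrophage markers. Kcnk6 had 0.71 and 0.14 with PE and 0.54 and 0.20 with ET-1, against 0.56 and 0.23 in vehicle. The part of RNA from any of these cell types in these values was not tested.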
